A study of Mus musculus with 12 samples.

Results

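The genes described here encode the core proteins of the spliceosome and their close relatives: the Snrp and Snrnp, Lsm, Sf3 and Prpf families. Members were taken by symbol from the 11581 genes of the deposited table, with pseudogene names left out (0 were present). This gave 53 genes, of which 18 are Snrp or Snrnp, 13 Lsm, 9 Sf3 and 13 Prpf. The groups compared were each of 3 polyadenylated RNA libraries from highly purified, unstimulated mouse CD8 T cells. One group came from mixed chimeras of OT-1 Foxp3Scurfy CD45.1+/2+ marrow and CD45.2+ donor marrow, and the other from chimeras in which the OT-1 marrow was Foxp3wt. The mice are labelled CD45.2+ C57BL/6 J and were used 2 months after reconstitution with marrow. OT-1 cells carry a transgenic receptor for the ovalbumin peptide SIINFEKL, and the scurfy mutation inactivates Foxp3, the master regulator of regulatory T cells. Only the OT-1 marrow is labelled CD45.1+, and the labels name no marker by which OT-1 cells were separated from CD8 T cells of the accompanying marrow. The 6 libraries of cells given SIINFEKL for 6 h were not analysed here. Nothing in the labels states that the libraries of a group stem from different animals, so p-values cover the spread between these libraries, which may be technical. Foxp3 has no row, so its transcript does not check the genotype.

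The spliceosome removes introns from pre-mRNA. Its building blocks are small nuclear ribonucleoproteins (snRNPs), each a small nuclear RNA wrapped by a ring of Sm proteins, or of Lsm proteins in the case of U6, together with proteins particular to that snRNP. U1 recognises the 5' splice site and U2, with its SF3A and SF3B subunits, the branch point. The U4/U6.U5 tri-snRNP, which holds most of the Prpf proteins, then joins to form the catalytic centre. Activated T cells enlarge and raise RNA production, and snRNP proteins are among the housekeeping machinery they need.

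Of the 53 genes, 4 rose and 1 fell in scurfy cells at an adjusted p under 0.05 (limma, adjusted over all 11581 genes). Lsm5, Lsm3, Snrpd2 and Sf3b6 rose, and Lsm14a fell. The members called made up 9.43% of the 53, with 7.55% higher and 1.89% lower. Over all genes 4.47% were called, 2.12% higher and 2.35% lower. The median log2 fold change (scurfy minus wild type, on deposited normalized counts plus 1) was 0.09 for the 53 genes, ranging from -0.76 to 1.77, and 0.01 for all genes. By this measure 34 members had positive and 19 negative values. The 3 scurfy values did not overlap the 3 wild-type values for 15 members (28.3%), 13 of them higher and 2 lower, against 27.1% of all genes (13.4% higher and 13.7% lower). At an unadjusted p under 0.05 stood 17 members (32.1%), 14 higher and 3 lower, against 21.2% of all genes (9.91% higher and 11.3% lower).

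Other tests called partly different members. edgeR called 6 (4 higher, 2 lower), where 4.84% of all genes were called (2.15% higher, 2.69% lower), the 5 of limma among them. DESeq2 and the authors' deposited table each called the same 7 (5 higher, 2 lower), with these 5 and Sf3a2 among them, where 8.9% of all genes were called (4.15% higher, 4.76% lower). limma-voom called 5 (3 higher, 2 lower) of a background of 4.65% (2.14% higher, 2.51% lower), without Lsm5.

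By family, 1 of 18 Snrp and Snrnp genes rose (median log2 fold change 0.10), 2 of 13 Lsm genes rose and 1 fell (median 0.26), 1 of 9 Sf3 genes rose (median -0.00), and 0 of 13 Prpf genes passed (median 0.02, with 4 at an unadjusted p under 0.05). Over all genes limma called 2.12% higher and 2.35% lower, with 21.2% at an unadjusted p under 0.05. For the Prpf genes edgeR and DESeq2 each called 1. When libraries were scaled to equal totals, the median of all genes moved to -0.13 and the family medians to -0.03, 0.13, -0.14 and -0.12 in the same order.

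**Figure D1:**
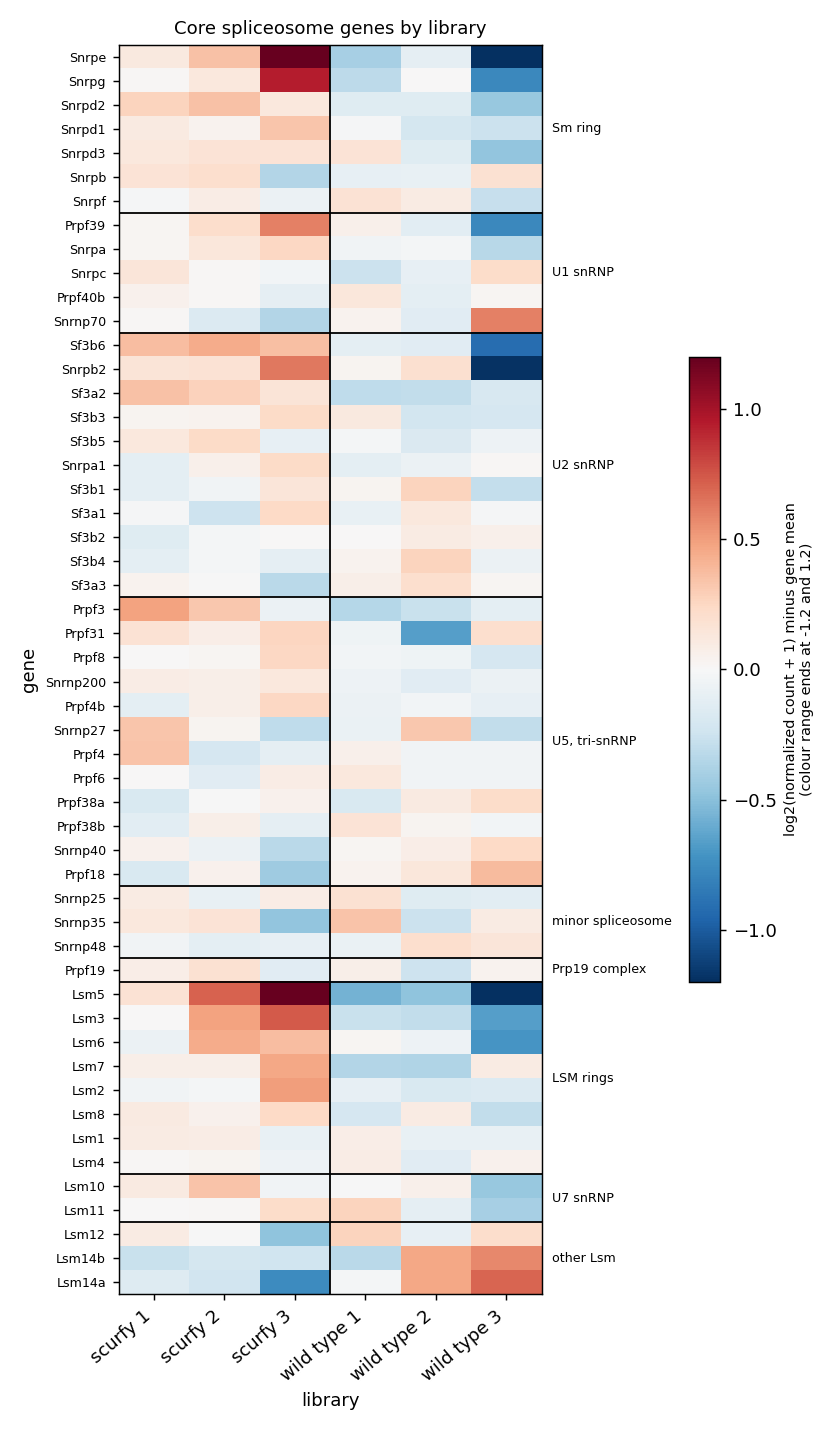
Deviation of 52 of the 53 members in each of the 6 libraries from its mean over the libraries (log2 scale, colour, ending at -1.2 and 1.2), with genes in rows by role and libraries in columns. Colours are strongest for Lsm5, Snrpe, Snrpb2 and Snrpg in the libraries numbered 3, and pale for most U5 and U4/U6.U5 proteins.

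The 5 members that passed are given with the 150 bases before their RefSeq start (GRCm38.p6), since these are the genes on which the comparison turns. Each sequence reads 5' to 3' on the gene's strand, and capitals mark CGGAAG or its complement CTTCCG, a spelling of the core recognised by ETS factors.
Lsm5, chr6:56704700-56704849, minus strand: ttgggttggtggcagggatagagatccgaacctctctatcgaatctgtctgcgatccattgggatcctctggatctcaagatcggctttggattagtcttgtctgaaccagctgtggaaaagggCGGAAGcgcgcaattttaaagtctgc
Lsm3, chr6:91515885-91516034, plus strand: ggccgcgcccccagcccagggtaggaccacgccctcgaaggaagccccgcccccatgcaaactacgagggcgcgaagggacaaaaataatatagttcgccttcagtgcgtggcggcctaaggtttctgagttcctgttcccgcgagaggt
Snrpd2, chr7:19149688-19149837, plus strand: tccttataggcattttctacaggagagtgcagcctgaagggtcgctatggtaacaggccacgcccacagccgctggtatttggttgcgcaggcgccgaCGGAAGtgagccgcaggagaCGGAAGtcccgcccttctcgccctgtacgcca
Sf3b6, chr12:4817458-4817607, plus strand: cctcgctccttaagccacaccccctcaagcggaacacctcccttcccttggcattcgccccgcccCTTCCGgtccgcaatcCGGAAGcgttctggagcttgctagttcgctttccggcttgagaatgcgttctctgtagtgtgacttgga
Lsm14a, chr7:34389706-34389855, minus strand: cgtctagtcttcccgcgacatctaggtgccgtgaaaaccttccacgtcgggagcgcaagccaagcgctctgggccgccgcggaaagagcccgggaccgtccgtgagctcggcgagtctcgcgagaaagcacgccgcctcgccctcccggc
Snrpd2 and Sf3b6 hold 2 matches each and Lsm5 holds 1. Lsm3 and Lsm14a hold 0.

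RefSeq promoter windows of 300 bases (250 before the start) were found for 43 of the 53 members, 50 windows in all. CGGAAG, on either strand, was in 58% of the member windows, 33.7% of the windows of all genes in the table and 16.9% of all RefSeq windows. The overlapping spelling CCGGAA was in 44%, 30.1% and 14.9%. GGGCGG, a GC box, was in 64%, 63.8% and 35.7%, and CCAAT was in 40%, 37.9% and 37.4%. TATAAA was in 6%, 6.36% and 13.6%, and the NRF1 motif in 2%, 2.37% and 0.971%. The spelling CGGAAG was chosen after the sequences had been seen. Such matches describe letters and not bound sites.

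The Sm proteins B, D1, D2, D3, E, F and G form the ring around the U1, U2, U4 and U5 RNAs. Of the 7 Sm genes tested, 1 rose, 4 had scurfy values all above wild type, and the median log2 fold change was 0.33. Over all genes 2.12% rose and 13.4% were separated in that direction. Snrpd2, which encodes SmD2, had 3527, 3730 and 3203 normalized counts in the scurfy libraries and 2648, 2655 and 2143 in the wild-type libraries. Its scurfy libraries all lay above its wild-type ones, of which the third was lowest. Means were 3487 ± 265 and 2482 ± 294 (SD, n = 3 each), which differ by 0.49 on the log2 scale (SE 0.11, limma adjusted p = 0.0266).

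Snrpe, for SmE, had 1351, 1585 and 3235 normalized counts in scurfy and 942, 1159 and 492 in wild type. The groups did not overlap, yet the third scurfy library was far above the other scurfy values and the third wild-type library was lowest. Its log2 fold change of 1.23 (SE 0.47) did not pass (limma adjusted p = 0.225). Snrpg, for SmG, had the same order of libraries at the extremes, with 1092, 1187 and 2083 in scurfy and 872, 1089 and 635 in wild type. Its difference was 0.72 on the log2 scale (SE 0.25, limma adjusted p = 0.139). Snrpd1 (SmD1) separated the groups with a smaller difference of 0.33 (limma adjusted p = 0.155). Snrpd3 (SmD3) differed by 0.30, with wild type 1 equal to the highest scurfy library within 1 normalized count (limma adjusted p = 0.217). Without wild type 3, its lowest library, Snrpd3 was at 0.14, and without wild type 1 at 0.46.

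Snrpb, which encodes SmB, had 4232, 4342 and 2962 normalized counts in scurfy and 3537, 3548 and 4295 in wild type. Here the third scurfy library was lowest and the groups overlapped. The log2 fold change was 0.00 with a 95% interval of -0.29 to 0.30. Snrpf (SmF) also stood at 0.00, with an interval of -0.25 to 0.26. Under scaling to library totals Snrpb took the value -0.13.

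The Lsm2 to Lsm8 proteins form the ring on the U6 RNA in the nucleus, and with Lsm1 in place of Lsm8 they form a cytoplasmic ring that promotes decapping and decay of mRNA. Of the 8 genes, 2 rose (25%, against 2.12% of all genes), and the median log2 fold change was 0.35. Lsm5 had 176, 255 and 535 normalized counts in scurfy and 105, 111 and 50.4 in wild type. Scurfy 3 was highest and wild type 3 lowest of the libraries, and the groups did not overlap. Means were 322 ± 189 and 88.8 ± 33.5 (SD, n = 3 each), and the log2 fold change was 1.77 (SE 0.39, limma adjusted p = 0.0278), the largest among the 53 genes. Lsm5 also had the largest spread within groups of the 53, a log2 SD of 0.73.

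Lsm3 had 209, 292 and 348 normalized counts in scurfy and 173, 169 and 132 in wild type, again without overlap and with the extremes in the libraries numbered 3. The means were 283 ± 69.4 and 158 ± 22.7 (SD, n = 3 each), which differ by 0.82 on the log2 scale (SE 0.22, limma adjusted p = 0.0472). In GENCODE M21 this gene overlaps AC161456.1 on the same strand, so its reads may be shared.

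The other ring members did not pass. Lsm6 had 509, 724 and 689 in scurfy and 540, 509 and 326 in wild type, with overlap (0.50, limma adjusted p = 0.152). Lsm7 differed by 0.40 (limma adjusted p = 0.187), with 480, 477 and 630 against 358, 355 and 489 normalized counts. Its lower scurfy libraries lay just under wild type 3. Lsm8, the subunit particular to the nuclear ring, had 1632, 1562 and 1784 against 1315, 1623 and 1230 (0.26, limma adjusted p = 0.231). Lsm1, its cytoplasmic counterpart, differed by 0.06, and Lsm2 by 0.29 (limma adjusted p = 0.401). Lsm4 had 4719, 4784 and 4487 in scurfy and 4970, 4252 and 4842 in wild type, so the ring's subunits did not share one value. Its log2 fold change was -0.00, with a 95% interval of -0.22 to 0.21.

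**Figure D2:**
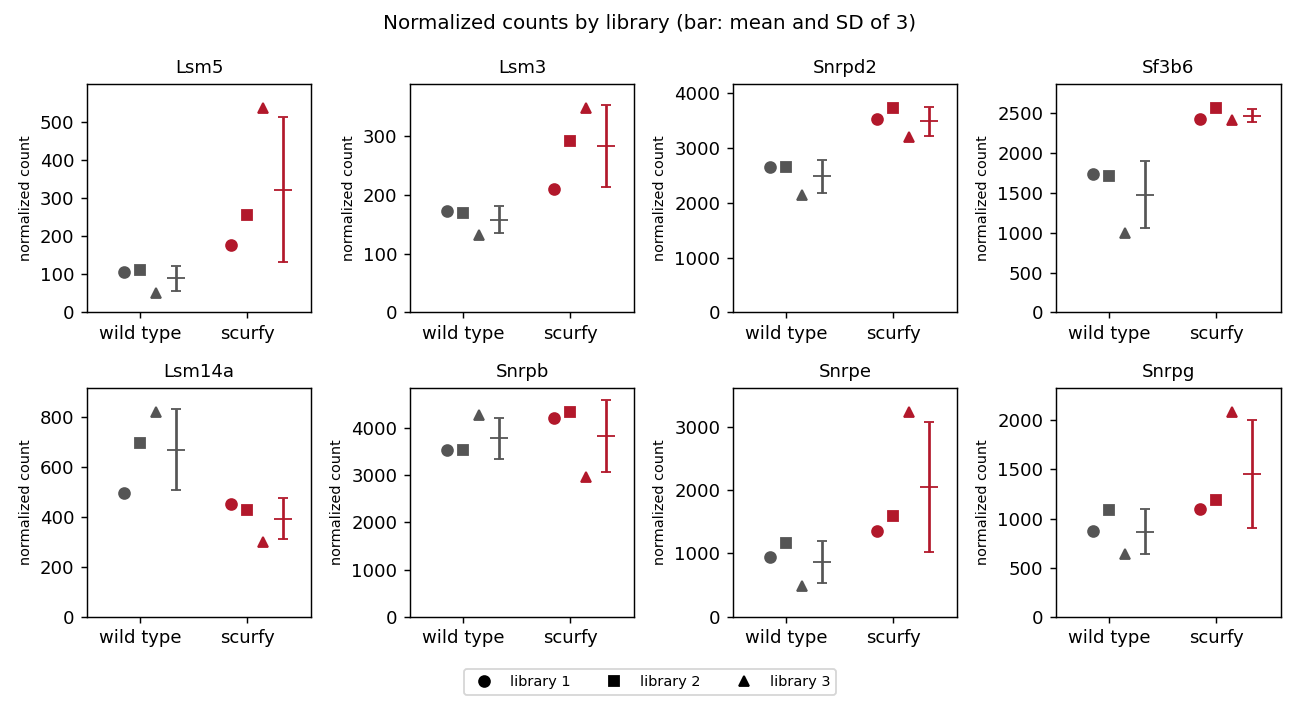
Normalized counts (linear axes from 0) of 8 members in each of the 3 wild-type (grey) and 3 scurfy (red) libraries, a symbol for each library number, with the mean and SD of each group beside the points. Lsm5, Lsm3, Snrpd2 and Sf3b6 lie higher in every scurfy library and Lsm14a lower, while Snrpe and Lsm5 spread most among the libraries.

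Of 6 U1 snRNP genes, 0 passed in limma (median log2 fold change 0.03). An unadjusted p under 0.05 was found for 2 of them (33.3%, against 21.2% of all genes). Snrnp70, the U1 protein that binds the first loop of U1 RNA, had 3427, 3022 and 2666 in scurfy and 3487, 3085 and 5162 normalized counts in wild type. Wild type 3 was far above the other wild-type libraries, and the groups overlapped (-0.34, limma adjusted p = 0.259). Snrpa and Snrpc, for the A and C proteins of U1, differed by 0.27 and 0.09, and Prpf40b by -0.03. Prpf39, a U1-associated protein, had 264, 299 and 394 normalized counts in scurfy and 270, 237 and 151 in wild type (0.56, limma adjusted p = 0.169). The libraries numbered 3 were its extremes: the difference was 0.31 without wild type 3 and 0.15 without both.

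Among 11 U2 snRNP genes 1 rose (9.09%, against 2.12% of all genes), and the median log2 fold change was 0.12. Sf3b6, whose product p14 lies in SF3B close to the branch-point adenosine, had 2423, 2563 and 2415 normalized counts in scurfy. In wild type it had 1731, 1708 and 995. The scurfy libraries lay close together, and the third wild-type library was well below the others. Means were 2467 ± 83.2 and 1478 ± 418 (SD, n = 3 each), 0.78 apart on the log2 scale (SE 0.17, limma adjusted p = 0.0267).

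Sf3a2, an SF3A subunit, had 427, 405 and 374 against 271, 273 and 294 normalized counts. The groups were apart, with a difference of 0.52 (limma adjusted p = 0.0638, DESeq2 adjusted p = 0.0262). It overlaps Plekhj1 on the opposite strand in GENCODE M21. Snrpb2 (U2B'') had 1005, 1014 and 1400 in scurfy and 924, 1033 and 395 in wild type, where the third library of each group set most of its difference of 0.64 (limma adjusted p = 0.349). Sf3b1, the large SF3B scaffold that contacts the branch helix, had 5873, 6190 and 7030 in scurfy and 6499, 7635 and 5204 in wild type. Its groups overlapped, and the log2 fold change was -0.00 with a 95% interval of -0.29 to 0.28. The remaining members lay between -0.20 (Sf3a3) and 0.20 (Sf3b3), with Snrpa1 at 0.12, Sf3b5 at 0.17, Sf3a1 at -0.02, Sf3b2 at -0.11 and Sf3b4 at -0.16.

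**Figure D3:**
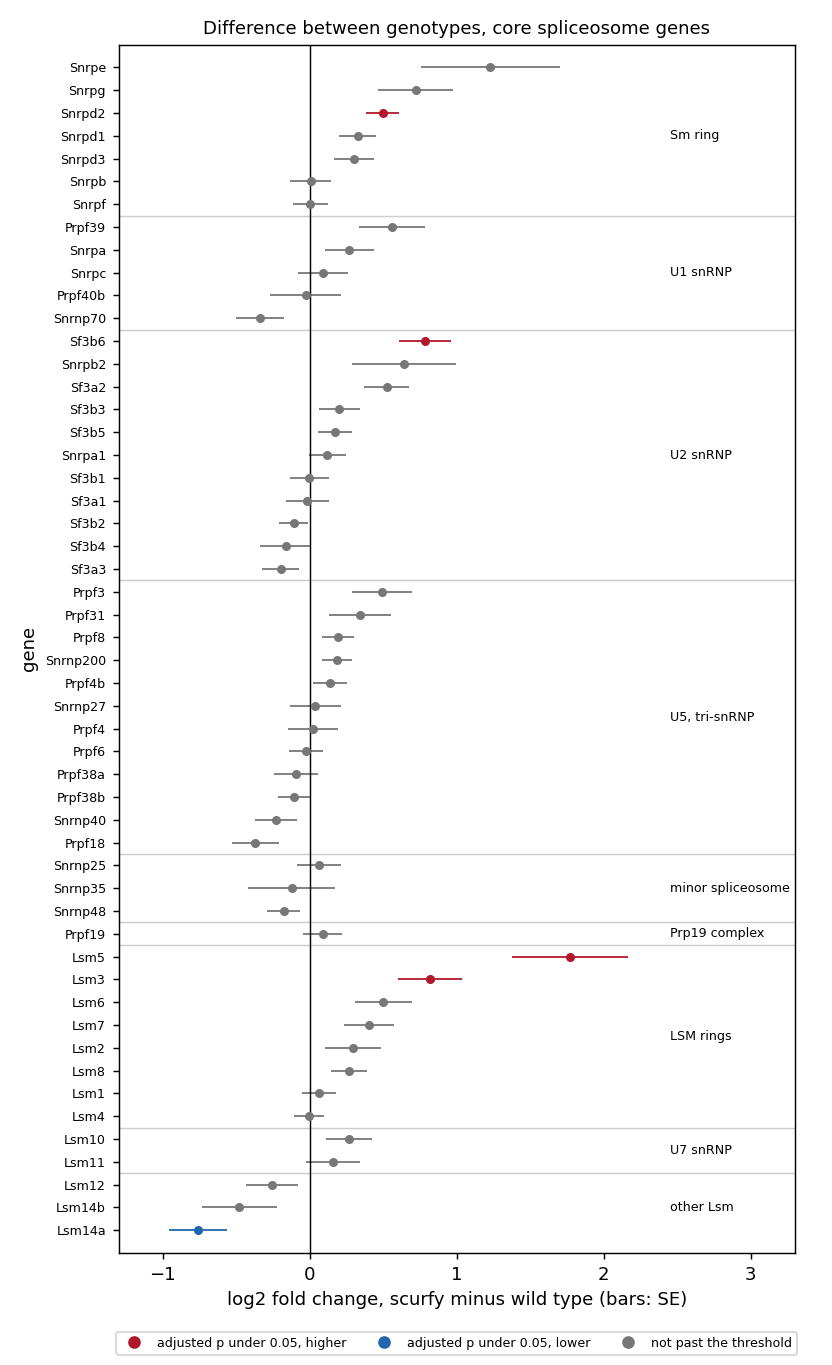
Log2 fold change (scurfy minus wild type) of 52 of the 53 members with bars of 1 SE from limma, ordered by role, with called genes in colour. Lsm5, Lsm3, Snrpd2 and Sf3b6 lie to the right of zero and Lsm14a to the left, and bars are widest for Snrpe and Lsm5.

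None of the 12 genes of U5 and the tri-snRNP passed in limma (0 of 12), in edgeR or in DESeq2, and the median was 0.03. An unadjusted p under 0.05 was found for 2 of them (16.7%, against 21.2% of all genes). Prpf3, a U4/U6 protein, had 255, 229 and 174 normalized counts in scurfy and 144, 151 and 168 in wild type (0.49, limma adjusted p = 0.187). Its groups did not overlap, the third scurfy library coming closest to wild type. Prpf8, the large U5 protein at the catalytic centre, had 2128, 2160 and 2524 against 2074, 2048 and 1842. It differed by 0.19, with a 95% interval of -0.04 to 0.42. Snrnp200, the helicase that unwinds U4 from U6, had 1940, 1917 and 1991 against 1747, 1659 and 1738, also 0.19 apart (limma adjusted p = 0.302). It had the smallest spread within groups of the 53 genes, a log2 SD of 0.035. Both U5 genes separated the groups without passing. Prpf18, a factor of the second catalytic step, differed by -0.37 (limma adjusted p = 0.197), Prpf31 by 0.34 and Snrnp40 by -0.23. The other 6, Prpf4, Prpf4b, Prpf6, Prpf38a, Prpf38b and Snrnp27, lay between -0.11 and 0.14.

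In the 3 genes of the minor (U12-type) spliceosome, 0 passed in limma, edgeR or DESeq2 and 0 had an unadjusted p under 0.05. Snrnp48 had 1154, 1097 and 1111 in scurfy and 1129, 1367 and 1320 normalized counts in wild type (-0.18, limma adjusted p = 0.393), Snrnp25 differed by 0.06 and Snrnp35 by -0.12. Prpf19, the ubiquitin ligase of the Prp19 complex, had 966, 1037 and 831 against 958, 767 and 942 (0.09, 95% interval -0.19 to 0.37). Lsm10 and Lsm11 replace SmD1 and SmD2 in the U7 snRNP, which processes histone mRNA. Lsm10 had 710, 831 and 637 against 654, 684 and 480 (0.27, limma adjusted p = 0.345), and Lsm11 differed by 0.16. The groups overlapped for all of these genes.

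The remaining 3 Lsm genes are not spliceosome subunits, although the symbol brings them in. Lsm14a and Lsm14b encode relatives that bind the translation repressor machinery of P-bodies. Of the 3 genes 1 fell, against 2.35% of all genes. Lsm14a had 450, 428 and 297 normalized counts in scurfy and 493, 696 and 817 in wild type. Each scurfy library lay below each wild-type library, scurfy 1 being close to wild type 1. Means were 392 ± 83.1 and 669 ± 164 (SD, n = 3 each), a difference of -0.76 (SE 0.20, limma adjusted p = 0.0437). The locus overlaps 2310043P16Rik and Gm12764 on the opposite strand in GENCODE M21 and the sources used here do not say whether reads were counted by strand. Lsm14b had 108, 112 and 110 against 104, 179 and 195 normalized counts, with overlap at wild type 1 (-0.48, limma adjusted p = 0.306). Lsm12 differed by -0.26 (limma adjusted p = 0.430).

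The calls differed in how they stood without single libraries, and each of the 5 ended without at least 1. Sf3b6 kept its call without any 1 of the wild-type libraries but not without scurfy 1, 2 or 3 (limma adjusted p = 0.0532, 0.0744 and 0.0838). Its log2 fold change stayed at 0.76 to 0.80 without a scurfy library but moved from 0.78 to 0.52 without wild type 3 (limma adjusted p = 0.0399). Snrpd2 lost it without scurfy 1 or 2 or wild type 2 or 3 (up to 0.104), and Lsm5 without scurfy 2 or 3 or wild type 1 or 3 (up to 0.0841). Lsm3 kept its call without scurfy 1 and lost it in the other 5 cases (up to 0.148). Lsm14a lost it without scurfy 2 or 3 or wild type 2 or 3 (up to 0.160). Between 0 and 3 members were called with 1 library left out, when calls over all genes fell from 518 to between 113 and 403. The log2 fold changes of these 5 genes kept their sign throughout. With libraries scaled to equal totals, Snrpd2 (0.36, limma adjusted p = 0.0589) and Lsm3 (0.68, limma adjusted p = 0.0637) lost their calls, while Lsm5, Sf3b6 and Lsm14a passed.

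A group of members had their highest value in scurfy 3 and lowest in wild type 3. This held for 10 of 53 (18.9%), against 7.62% of all genes. With a main mRNA under 1000 bases, it held for 38.5% of members and 16.8% of all genes. With a longer one, it held for 12.5% and 5.96%. Scurfy 3 was the highest library for 18 members (34%), against 21.8% of all genes, and wild type 3 the lowest for 18, against 19.9%. Relative to each gene's mean over the 6 libraries, the median deviation of the 7 Sm genes was 0.12, 0.16 and 0.16 in scurfy and -0.10, -0.10 and -0.45 in wild type, on the log2 scale. For Lsm2 to Lsm8 it was 0.02, 0.07 and 0.47 in scurfy and -0.20, -0.18 and -0.30 in wild type. The median of the other 39 members stayed between -0.05 and 0.03 in all 6. The Sm values were thus lowest in wild type 3, and the Lsm2 to Lsm8 values highest in scurfy 3. Without both libraries numbered 3, a comparison added after the data were seen, 2 members were called, both higher. Of all genes 290 were called in that comparison, against 518 in the main fit.

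**Figure D4:**
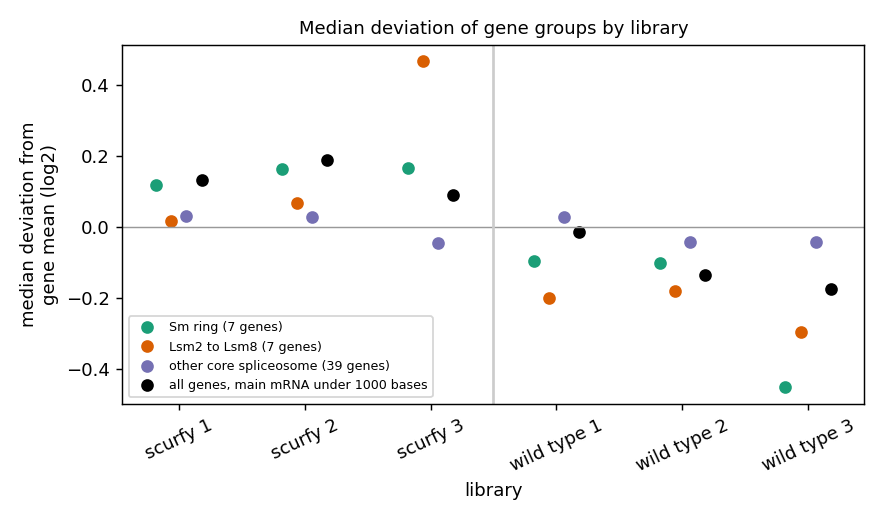
Median deviation from the gene mean (log2 scale) in each library for the 7 Sm genes, Lsm2 to Lsm8, the other 39 members and all genes with a main mRNA under 1000 bases. The Sm median is lowest in wild type 3 (-0.45) and that of Lsm2 to Lsm8 highest in scurfy 3 (0.47), while the other members stay near zero.

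In the Sm ring and Lsm2 to Lsm8 together 3 of 14 (21.4%) rose and 10 of 14 (71.4%) had an unadjusted p under 0.05. Of the other 39 members 1 rose and 1 fell, with 7 (17.9%) under 0.05 unadjusted. This difference was not tested. Over all genes 2.12% rose, 2.35% fell and 21.2% were under 0.05 unadjusted. Several of the 14 are short. Main mRNA lengths in GENCODE M21 were 494 bases for Lsm5, 503 for Snrpe and 468 for Lsm7. Others of the 14 are longer, with 1420 for Snrpd2, 2147 for Lsm6 and 3036 for Snrpd3. Lsm14a, outside the 14, has 2944. Of the 13 members with a main mRNA under 1000 bases, 2 rose (15.4%) and the median log2 fold change was 0.27. Over all 680 genes of that length 92 rose (13.5%), 1 fell and the median was 0.25. An unadjusted p under 0.05 was found for 46.2% of these short members and 38.4% of all genes of that length. For the 40 longer members the median was 0.04, and for the 9269 longer genes -0.03. Of these longer members 2 rose (5%) and 1 fell (2.5%), against 0.993% and 2.78% of the longer genes. At an unadjusted p under 0.05 stood 27.5% of the longer members and 20.7% of the longer genes. Spearman's rho between length and log2 fold change was -0.29 across the 53 members and -0.21 across 9949 genes, given as a description since genes share these libraries.

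In an alternative added after the data were seen, each library's trend of deviations from the gene means on main mRNA length was removed. Genes without such a length were left unchanged. The 4 rises lost their calls, and 425 of all genes were called, against 518 in the main fit. Lsm5 was then at 1.34 (limma adjusted p = 0.0603), Lsm3 at 0.49 (0.200), Sf3b6 at 0.64 (0.0540) and Snrpd2 at 0.40 (0.0583), while Lsm14a kept its call at -0.76 (0.0472). Lsm7 and Lsm8, which had not passed, went from 0.40 to -0.045 and from 0.26 to -0.010. With the trend on total exonic length removed instead, Lsm5, Sf3b6 and Snrpd2 passed.

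**Figure D5:**
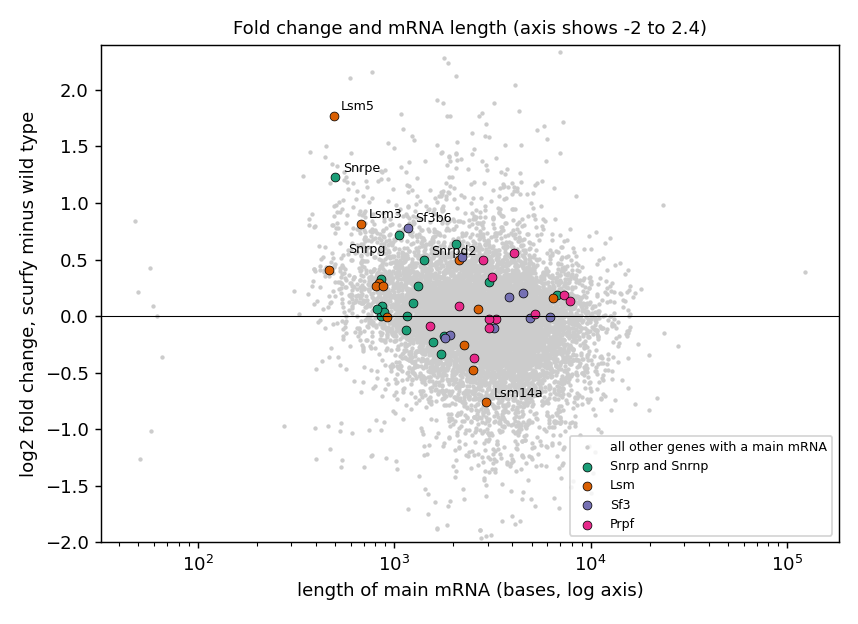
Log2 fold change (scurfy minus wild type) against main mRNA length in bases (log axis) for all genes within the range drawn (grey) and for 52 of the 53 members, which are coloured by family. Members under 1000 bases lie around a median of 0.27, as all genes of that length do around 0.25.

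Among 74 other spliceosome proteins of a 75-gene list, 1 rose and 1 fell (median log2 fold change 0.04). This is 2.7% called, against 4.47% of all genes. Bud31, a component of the activated spliceosome, had 1446, 1451 and 1858 normalized counts in scurfy and 1010, 1068 and 791 in wild type (0.73, limma adjusted p = 0.0134). All scurfy libraries lay above all wild-type ones. Wbp11, a factor associated with splicing proteins, fell by 0.40 on the log2 scale (limma adjusted p = 0.0449), with 1361, 1419 and 1319 normalized counts in scurfy and 1701, 1890 and 1810 in wild type. The groups were apart here too. Of 17 genes for snRNP assembly and import 0 passed in limma, edgeR or DESeq2 (median 0.03). An unadjusted p under 0.05 was found for 4 of them (23.5%, against 21.2% of all genes). Sart3, which recycles U6, had the smallest p of the 17, at -0.39 (limma adjusted p = 0.117).

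The 8 partners of the cytoplasmic Lsm1 to Lsm7 ring had a median of -0.11, and 1 fell (12.5%, against 2.35% of all genes). Log2 fold changes were negative for 4 of them and positive for 4, the highest being Dcp2 at 0.12. Xrn1, the 5' exonuclease that degrades decapped mRNA, had 455, 444 and 422 normalized counts in scurfy and 730, 582 and 760 in wild type, without overlap. Its log2 fold change was -0.64 (SE 0.14, limma adjusted p = 0.0231). Ddx6, a helicase of P-bodies that binds Lsm14a, was at -0.45 (limma adjusted p = 0.0537, although edgeR and DESeq2 called it).

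Libraries held 8852518 to 23149523 reads over the table, of which the 53 genes took 0.525% to 0.555%, with 47 to 15797 reads per member and library. The highest total, that of wild type 2, rests on taking the smallest value of that library as 2 reads. The summed level of all 7 CD8 T cell markers was 56035 to 64552 normalized counts in scurfy and 49624 to 50938 in wild type, Cd3d and Cd2 being higher. Their log2 fold changes ran from 0.00 (Cd8b1, means 21566 and 21498) to 0.76 (Cd3d, means 11635 and 6837), with Cd8a at 0.12. The 7 of 12 B cell markers in the table summed to 9895 to 11352 and 10971 to 11753, most of it Ighm (means 10309 and 10862). All 7 had negative log2 fold changes (median -0.99), 4 with groups that did not overlap: H2-Aa (-3.97, limma adjusted p = 0.0164), H2-Ab1 (-3.48, limma adjusted p = 0.0638, edgeR adjusted p = 0.0435), H2-Eb1 (-2.34) and Cd74 (-0.99). For 2 of 8 myeloid markers the sums were 1463 to 1579 and 850 to 1172, with Cst3 higher, and the 1 of 5 erythroid markers, Car2, was at 101 to 156 and 232 to 315. No CD4 T cell (0 of 3) or natural killer marker (0 of 4) has a row. Cell-cycle genes (0 of 19 called, 1 at an unadjusted p under 0.05, Ccnd3 at 0.32) passed in none of limma, edgeR and DESeq2. Of 6 mitochondrially encoded genes 0 passed in limma or edgeR, with 1 at an unadjusted p under 0.05, and 1 was called by DESeq2 (mt-Nd4 at -0.55, limma adjusted p = 0.0684). The part of these markers in the members' values was not tested. In bulk samples, fewer cells of a type and less RNA per cell cannot be told apart.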

How the data were processed

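Per the labels' protocols, polyadenylated RNA was primed with indexed poly-dT oligos, amplified linearly by in vitro transcription and sequenced on a NextSeq 500. The submitters' processing notes name Trim Galore 0.4.4, STAR 2.6, featureCounts, edgeR, DESeq2 and build NCBIM37. The deposited values are a signal: read counts scaled by 1 factor for each library, which the values show (100% whole reads within 0.01 read, in wild type 2 where the smallest value is taken as 2 reads). Both deposited tables hold the same unstimulated values. The authors' deposited table also gives log2 fold changes, a test score, p-values and adjusted p-values.

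The test was limma 3.58.1 (R 4.3.3) on log2(value + 1), with trended, robust moderation (4 residual degrees of freedom) and Benjamini-Hochberg adjustment over 11581 genes, which understates changes of low genes. Alternatives included edgeR 4.0.16 and DESeq2 1.42.0 on recovered reads. The table's smallest mean is 7.10, so a filter preceded deposit, and a missing row says nothing of a level. All 53 members passed it, while Snrpn has no row. Each member may be named by its symbol. Values in every library are given for called genes and, in each role, for those of smallest p and highest mean, and for others whose libraries differ. Of each other list, genes past the threshold are named, or that of smallest p. The values of 1 member are not reported here, though counts and medians include it. Ddx6 was chosen after its values were seen. Members and lists were chosen with earlier results of these data known. Replicates of a group differed by 6.86 to 32.4 times the sampling variance. Reads shared with processed pseudogenes were not examined. The script was tested on simulated data.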

Additional observations from a re-analysis of the deposited data

How the results depend on the processing

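At least 47 reads lay behind each member in each library. Of 53 members limma called 5. The count was 0 without trended or robust moderation (0 of all genes) and 3 with the exonic length trend removed. It was 1 with the main mRNA length trend removed (425 of all genes) and 2 without both libraries numbered 3 (290 of all genes). The last 2 alternatives were added after the data were seen. edgeR called 6 and DESeq2 7. At an unadjusted p under 0.05 stood 9 of 53 members without trended or robust moderation, where 2106 of 11581 genes did. In the main fit, in edgeR and in DESeq2 17 members did, where 2456, 2417 and 2384 of all genes did. Leaving out 1 library gave 0 to 3 calls, 0 to 2 higher and 0 to 1 lower. Higher calls were 2 under library total scaling and without both libraries numbered 3. They were 0 without trended or robust moderation and with the mRNA trend removed. Lower calls were 2 with a pseudocount of 5, a mean filter of 50, library totals, TMM, edgeR, DESeq2 and voom. They were 0 without trended or robust moderation, with the exonic trend removed and without both libraries numbered 3. Over all genes, calls were 929 under library totals, 891 by DESeq2, 315 with the exonic trend removed, 290 without both libraries numbered 3, and 113 to 403 with 1 left out.

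Under library totals the family medians were -0.031 (Snrp and Snrnp), 0.13 (Lsm), -0.14 (Sf3) and -0.12 (Prpf), with all genes at -0.13. With the mRNA trend removed they were -0.080 for Snrp and Snrnp and 0.021 for Lsm, and with the exonic trend removed 0.093 for Sf3. Without both libraries numbered 3 they were 0.11 for Lsm and -0.12 for Sf3. With 1 library left out they ranged from 0.11 to 0.18 for Snrp and Snrnp, from 0.11 to 0.32 for Lsm, from -0.079 to 0.13 for Sf3, from -0.022 to 0.054 for Prpf.

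With the mRNA trend removed, Lsm7 went from 0.40 to -0.045 and Lsm8 from 0.26 to -0.010, so that none of either difference was left. Lsm4, Prpf19, Sf3b1 and Snrpb, which were near zero, each changed sign under at least 1 setting. Lsm4 took 0.048 without both libraries numbered 3. With the exonic and mRNA trends removed Lsm4 kept its sign, at -0.22 and -0.23. Prpf19 took -0.048 under library totals and kept its sign, at 0.069, with the mRNA trend removed. Sf3b1 took 0.093 and 0.058 with the exonic and mRNA trends removed. Snrpb took -0.13 under library totals, -0.0021 by voom, and -0.070 and -0.15 with these trends removed. With 1 library left out, values ran from -0.074 to 0.039 for Lsm4, from -0.014 to 0.18 for Prpf19, from -0.15 to 0.13 for Sf3b1, from -0.093 to 0.18 for Snrpb. None of these was called. Of 28 members not followed singly, 13 changed sign under at least 1 of 19 settings, and 0 of them was called after it. The causes were not tested.

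Same-numbered libraries did not deviate together (correlations 0.00877, -0.0398 and -0.0695), and no library correlated best with its own number. With the replicate block limma called 372 genes and 2 members, Sf3b6 and Snrpd2, 2 higher and 0 lower.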
